A study of Mus musculus with 8 samples.

Results

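The methionine cycle and the one-carbon reactions that feed it were followed through 9 genes of mouse liver, *Mat1a*, *Mat2a*, *Gnmt*, *Bhmt*, *Ahcy*, *Cbs*, *Cth*, *Pemt* and *Shmt1*, which were taken by symbol from the 55385 gene identifiers of the table. All 9 were present, and all 9 were among the 14340 genes that passed the filter on low values and were tested. The livers came from 4 *Usp39*-HKO mice and 4 control mice, which the labels call WT. *Usp39* encodes a protein of the spliceosome, and *Usp39*-HKO mice carry *Usp39* alleles with loxP sites around exon 2 (*Usp39* fl/fl) and Cre under the albumin promoter (Alb-Cre), which is active in hepatocytes, on a C57BL/6J background. Mice of both groups were littermate males aged 5 weeks and fasted for 16 h. The sources used here do not state whether the controls carry loxP alleles. RNA was taken from whole liver, 1 library per mouse without pooling, and *Usp39* RNA from cells in which Cre was not active is part of each total. The total covers all exons of the gene, so any transcripts of the deleted allele that lack exon 2 are counted too.

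Liver cells use methionine mainly as a source of methyl groups. Methionine adenosyltransferase joins methionine to ATP and forms S-adenosylmethionine (SAM), methyltransferases pass its methyl group on and leave S-adenosylhomocysteine, and this is split to homocysteine. Homocysteine is either methylated back to methionine, with betaine or a folate as the donor, or passed through transsulfuration to cysteine. In liver, the formation of phosphatidylcholine from phosphatidylethanolamine by *Pemt* is a large user of SAM.

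Counts on genes summed to between 8589636 and 10418450 per library. Of 14340 genes tested with edgeR's quasi-likelihood test on counts, 3225 (22.5%) had a Benjamini-Hochberg adjusted p under 0.05, the threshold for a call throughout, with 48.4% of these calls higher in *Usp39*-HKO livers. The trimmed-mean (TMM) factors, which scale libraries to a common middle of the genes, were 0.911 to 0.94 for the control libraries and 1.01 to 1.19 for those of *Usp39*-HKO mice, and without them 83.5% of calls were higher. The deposited FPKM (counts scaled to exon length and to the total of the library) are not scaled in this way. The difference in mean log2(FPKM + 1) between the groups, taken gene by gene, had a median of 0.17 over the genes tested, higher in *Usp39*-HKO livers. *Usp39* itself averaged 9.58 ± 0.71 FPKM (SD, n = 4) over the controls and 8.44 ± 0.29 FPKM (n = 4) over the *Usp39*-HKO mice, with all 4 *Usp39*-HKO livers below the controls (log2 fold change -0.41, standard error (SE) 0.11, adjusted p = 0.0212 by edgeR), and the adjusted p was 0.247 without TMM factors. The 4 *Usp39*-HKO livers differed in how far they lay from the controls. When each was compared over the genes called without it, its median difference from the controls was 63.9%, 72.6%, 89.5% and 129% of the fitted log2 fold change for *Usp39*-HKO mice 1 to 4, and 90.0%, 96.95%, 98.5% and 99.6% of these genes differed in the fitted direction. *Usp39*-HKO mouse 1 was the lowest and mouse 4 the highest on both measures. The same 4 controls served for the calls and for this comparison, so agreement in direction is partly built in. The genes compared also differed, with 3321, 2888, 2239 and 1917 genes for *Usp39*-HKO mice 1 to 4. Each member's fold change is also given without *Usp39*-HKO mouse 1.

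Of the 9 members, 1 was called higher in *Usp39*-HKO livers (*Mat2a*), 4 were called lower (*Bhmt*, *Ahcy*, *Shmt1* and *Cbs*) and 4 were not called (*Mat1a*, *Gnmt*, *Cth* and *Pemt*). Among all genes tested, 10.9% were called higher and 11.6% were called lower. The fitted log2 fold change was below 0 for 8 of 9 members, with a median of -0.54, beside -0.0015 over all genes tested. On the FPKM as deposited, the groups did not overlap for *Mat2a*, which was higher in *Usp39*-HKO livers, and for *Shmt1*, which was lower. Such a separation was present upwards in 23.9% and downwards in 4.81% of all genes tested. When *Usp39*-HKO mouse 1 was left out, 6 members were called lower, with *Mat1a* and *Gnmt* added, and when any other mouse was left out 1 or 2 were. The count of 1 higher member was the same in all 8 fits without a mouse.

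**Figure D1:**
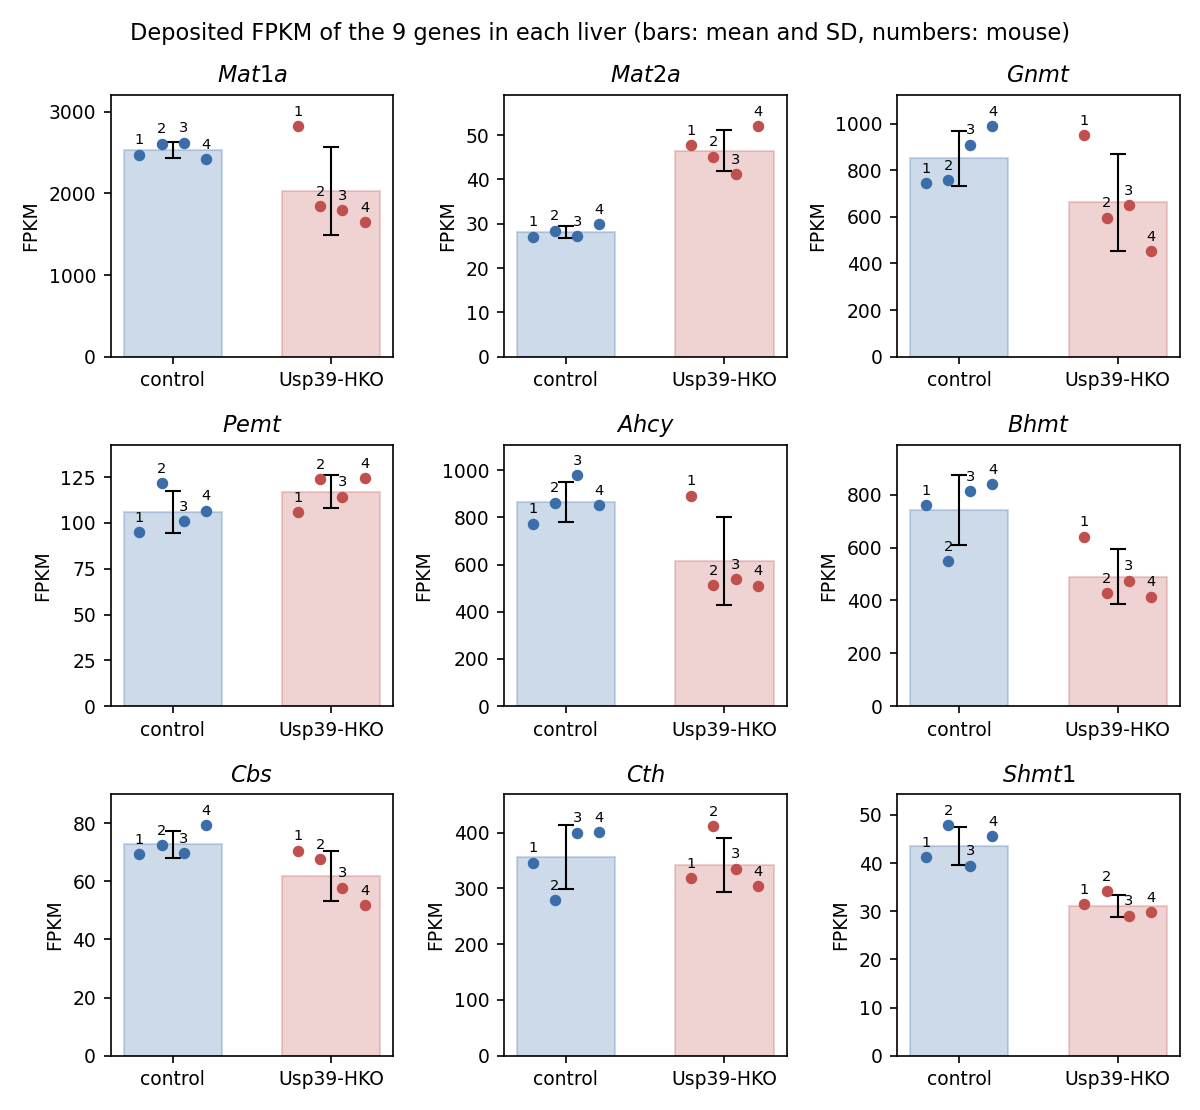
FPKM of the 9 members (1 panel each, linear axis from 0) in the 4 control and 4 *Usp39*-HKO mice, with 1 numbered point per mouse, a bar at the group mean and error bars of 1 SD. *Mat2a* separates upwards and *Shmt1* downwards, whereas for *Mat1a*, *Gnmt* and *Ahcy* *Usp39*-HKO mouse 1 lies far above the other 3 *Usp39*-HKO mice.

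*Mat1a* encodes the catalytic subunit of methionine adenosyltransferase that marks the adult hepatocyte, and *Mat2a* encodes the subunit used by most other tissues and by growing or dedifferentiated liver cells. *Mat1a* (ENSMUSG00000037798, chr14:41105035-41124412 on mm10, plus strand) measured 2473, 2609, 2624 and 2419 FPKM in control mice 1 to 4. In *Usp39*-HKO mice 1 to 4 it measured 2828, 1842, 1797 and 1647 FPKM. The highest and the 3 lowest values were thus all from *Usp39*-HKO mice, and the groups overlapped. The means were 2531 ± 101 FPKM for controls and 2029 ± 539 FPKM for the *Usp39*-HKO group (SD, n = 4 each), and their difference was not called in the two-sided exact permutation test (p = 0.143). The log2 fold change was -0.54 (SE 0.21, edgeR adjusted p = 0.0915). Without *Usp39*-HKO mouse 1 it was -0.76 and the adjusted p was 0.00405, and with DESeq2 on all mice it was -0.53 and the adjusted p was 0.0246. In the edgeR fits without any other single mouse *Mat1a* was not called (adjusted p up to 0.204). Its adjusted p was under the threshold in 2 of 15 alternatives.

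*Mat2a* (ENSMUSG00000053907, chr6:72432799-72439558, minus strand) was higher in *Usp39*-HKO livers. Control mice 1 to 4 had 27.1, 28.4, 27.2 and 29.8 FPKM. *Usp39*-HKO mice 1 to 4 had 47.7, 45.1, 41.2 and 52.1 FPKM. Each *Usp39*-HKO liver, mouse 1 included, was above each control. From 28.2 ± 1.27 to 46.5 ± 4.58 FPKM (SD, n = 4 each), the difference reached p = 0.029 in the two-sided exact permutation test, which is the smallest value that the 70 assignments of 8 mice allow. In the edgeR fit *Mat2a* was 1.40-fold higher (log2 fold change 0.49, SE 0.10, adjusted p = 0.00545), and its adjusted p stayed under the threshold in all 15 alternatives (other tools, scalings, filters and pseudocounts, and fits without 1 mouse each). The log2 fold change was between 0.47 (without *Usp39*-HKO mouse 1, adjusted p = 0.00607) and 0.54 when 1 mouse was left out, and the fold change of all mice lay just under the size of 0.5 in the cutoff that the study used beside p under 0.05. That cutoff called 0 members higher and 5 lower (*Bhmt*, *Ahcy*, *Shmt1*, *Gnmt* and *Mat1a*), beside 12.1% and 9.62% of all genes tested. Of the exon bases of *Mat2a*, 11.3% lie opposite exons of *Particl*, and the sources used here do not state whether strand was used in counting, so that reads there cannot be assigned to one of the genes. *Particl* was at 1.12 ± 0.20 FPKM in the control group and 1.83 ± 0.39 FPKM in the *Usp39*-HKO group (SD, n = 4 each), and was not called (log2 fold change 0.47, adjusted p = 0.235 in the edgeR fit).

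The ratio of both subunits within a mouse does not depend on the scaling between libraries. *Mat1a* to *Mat2a* was 91.2, 91.8, 96.3 and 81.0 in control mice 1 to 4. In the *Usp39*-HKO mice it was 59.3, 40.8, 43.6 and 31.6. The groups did not overlap, and *Usp39*-HKO mouse 1 was the highest of its group but below every control. The mean ratio went from 90.1 ± 6.45 to 43.8 ± 11.5 (SD, n = 4 each), a difference of -1.07 on the log2 scale. *Mat1a* stayed the far more abundant subunit transcript in every liver. In controls it ranked 10 among the 14340 genes tested by mean FPKM, and *Mat2a* ranked 1559.

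**Figure D2:**
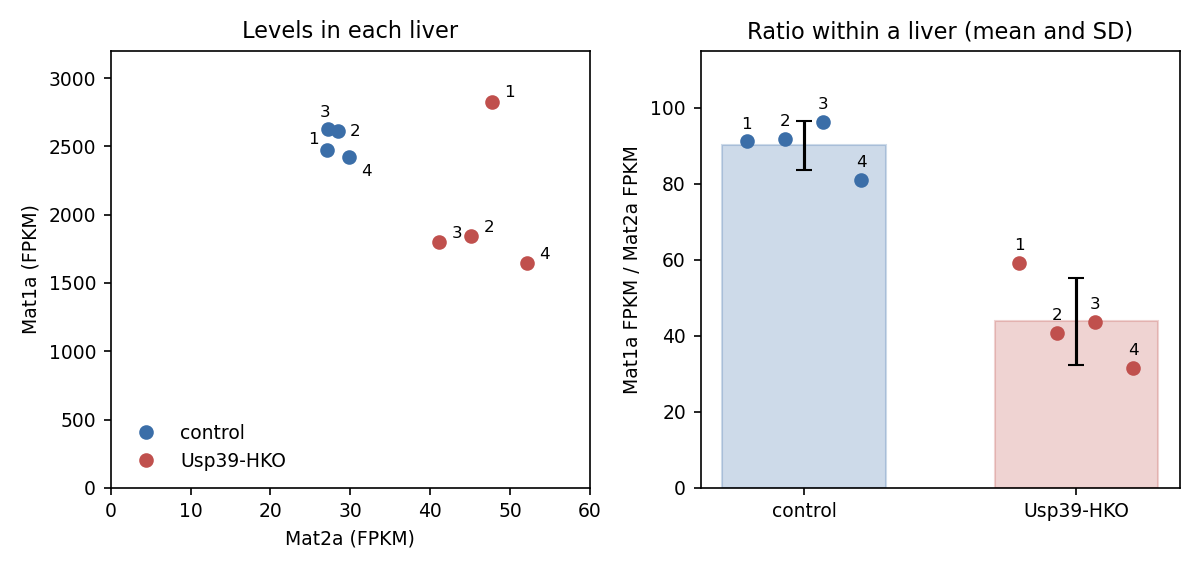
*Mat1a* FPKM (vertical axis) against *Mat2a* FPKM (horizontal axis) with 1 numbered point per mouse, and beside it the *Mat1a* to *Mat2a* ratio of each mouse with the group mean and SD. The 4 controls lie at ratios of 81.0 to 96.3 and the 4 *Usp39*-HKO mice at 31.6 to 59.3.

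As background, *Mat2a* RNA is controlled by the cell's SAM level: the methyltransferase METTL16 binds hairpins in its 3′ untranslated region that carry the letters TACAGAGAA or TACAGAAAA, and at low SAM promotes splicing of the last intron and a stable mRNA. The 6 matches in the 2178 bases of the annotated *Mat2a* 3′ untranslated region are shown because no other gene of 21153 with an annotated 3′ untranslated region had as many. They are written 5′ to 3′ in the sense of the transcript (GRCm38, minus strand), each in a window of 25 bases with the 9 matching letters, whose coordinates are given, in capitals.
site 1, chr6:72434245-72434253: gcgtaggtTACAGAGAAgccttcaa
site 2, chr6:72433461-72433469: ttgtgataTACAGAGAAgtcacagg
site 3, chr6:72433282-72433290: ggtgtagcTACAGAGAAaccagctt
site 4, chr6:72433167-72433175: ggcgtaagTACAGAGAAgccatcac
site 5, chr6:72433056-72433064: aggtgtccTACAGAAAAaccttggg
site 6, chr6:72432948-72432956: tggtgtggTACAGAGAAgccagctt
At least 1 match in the sense strand was present in 938 of the 21153 genes (4.43%), and none in the other 8 members. A match is a run of letters and not a measured binding site. The table holds 1 total per gene, so that retention of the last *Mat2a* intron was not measured. *Mettl16* was a low transcript. It measured 1.04, 0.72, 0.79 and 0.81 FPKM in control mice 1 to 4 and 1.41, 1.28, 1.68 and 1.52 FPKM in *Usp39*-HKO mice 1 to 4, so the groups did not overlap. It was called higher (log2 fold change 0.57, SE 0.15, adjusted p = 0.0188 in the edgeR fit, 94 to 221 counts per liver), and lost the call when control mouse 3, control mouse 4 or *Usp39*-HKO mouse 3 was left out (adjusted p up to 0.0598). *Mat2b*, the regulatory subunit of the MAT2A enzyme, went from 9.01 ± 0.63 to 13.1 ± 1.93 FPKM (SD, n = 4 each) with a log2 fold change of 0.30 that was not called (adjusted p = 0.109, and 0.0239 without *Usp39*-HKO mouse 2).

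*Mat2a* also lies close to the targeted gene, 87615 bases from *Usp39* on the same strand of chromosome 6. Of 28 genes tested within 500 kb of *Usp39*, itself included, 7 were called (25%), beside 22.5% of all genes tested. The 2 called higher were *Mat2a* and *Capg* (log2 fold change 1.76, adjusted p = 0.00338), and the 5 called lower were *Usp39*, *Tmem150a*, *Ggcx*, *Elmod3* and *Retsat*. These neighbours are named as the called genes of that window and were chosen after their values were seen.

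Of the enzymes that use SAM, *Gnmt* encodes glycine N-methyltransferase, which disposes of excess SAM in liver, and *Pemt* encodes phosphatidylethanolamine N-methyltransferase. *Gnmt* (ENSMUSG00000002769, chr17:46725664-46729168, minus strand) was at 744, 757, 910 and 990.0 FPKM in control mice 1 to 4 and at 949.7, 596, 649 and 452 FPKM in *Usp39*-HKO mice 1 to 4. As for *Mat1a*, *Usp39*-HKO mouse 1 lay among the highest livers and the other 3 *Usp39*-HKO livers lay below all controls. The means of 850.3 ± 119.7 and 662 ± 209 FPKM (SD, n = 4 each) gave p = 0.171 in the two-sided exact permutation test, and the log2 fold change of -0.57 was not called (SE 0.23, adjusted p = 0.0985 in the edgeR fit). Without *Usp39*-HKO mouse 1 it was -0.82 with an adjusted p of 0.00756. In the edgeR fits without any other single mouse *Gnmt* was not called (adjusted p up to 0.22). Its adjusted p was under the threshold in 3 of 15 alternatives.

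*Pemt* (ENSMUSG00000000301, chr11:59970614-60046489, minus strand) had the fitted log2 fold change nearest to 0 among the members with TMM factors. Values of 95.1, 122, 101 and 107 FPKM in controls stood beside 106, 124, 114 and 124 FPKM in *Usp39*-HKO livers. The groups overlapped, at 106 ± 11.5 and 117 ± 8.84 FPKM (SD, n = 4 each; two-sided exact permutation test, p = 0.171). The log2 fold change was -0.09 with TMM factors (SE 0.11, adjusted p = 0.561 in the edgeR fit) and 0.14 without them, so its direction depends on the scaling and neither value was called. Without *Usp39*-HKO mouse 1 it was -0.05 (adjusted p = 0.787). Within a mouse, *Gnmt* to *Pemt* went from a mean ratio of 8.08 to 5.77, and *Pemt* to *Pcyt1a*, the gene of the rate-limiting enzyme of the other route to phosphatidylcholine, from 6.89 to 7.46. In both ratios the groups overlapped.

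*Ahcy* encodes S-adenosylhomocysteine hydrolase, which removes the product that inhibits methyltransferases. *Ahcy* (ENSMUSG00000027597, chr2:155059310-155074497, minus strand) measured 773, 862, 978 and 851 FPKM in control mice 1 to 4. *Usp39*-HKO mice 1 to 4 had 893, 513, 538 and 510.4 FPKM. The 3 livers of *Usp39*-HKO mice 2, 3 and 4 were close together and below all controls, while *Usp39*-HKO mouse 1 was above 3 of the 4 controls. It was called lower (866 ± 84.5 to 613 ± 187 FPKM, SD, n = 4 each; log2 fold change -0.71, SE 0.22, adjusted p = 0.0354 in the edgeR fit), although the groups overlapped (two-sided exact permutation test on FPKM, p = 0.114). Without *Usp39*-HKO mouse 1 the log2 fold change was -0.97 with an adjusted p of 0.000836, and without any other single mouse the call was lost (adjusted p up to 0.0994). Since 81.9% of its longest transcript is near-identical to *Gm4737* and *Gm9826*, reads may be divided between these genes. *Gm4737* went from 187 ± 27.8 to 121 ± 33.3 FPKM (SD, n = 4 each) with a log2 fold change of -0.84 (adjusted p = 0.0127, edgeR). The ratio of *Ahcy* to *Gm4737* ranged from 4.00 to 5.06 over the controls and from 4.93 to 5.21 over the *Usp39*-HKO mice.

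*Bhmt* encodes betaine-homocysteine methyltransferase, which returns homocysteine to methionine with the methyl group of choline-derived betaine. *Bhmt* (ENSMUSG00000074768, chr13:93616675-93637961, minus strand) was at 761, 549, 814 and 839.6 FPKM in control mice 1 to 4 and at 641, 428, 474.7 and 414 FPKM in *Usp39*-HKO mice 1 to 4. Only control mouse 2 and *Usp39*-HKO mouse 1 crossed between the groups. It had the lowest fitted log2 fold change among the members, -0.82 (SE 0.21, adjusted p = 0.0172 in the edgeR fit), with means of 741 ± 132 and 489.5 ± 104 FPKM (SD, n = 4 each; two-sided exact permutation test, p = 0.057). The adjusted p was under the threshold in 13 of 15 alternatives and reached up to 0.0552 without control mouse 3 or control mouse 4. Without *Usp39*-HKO mouse 1 the log2 fold change was -0.99 with an adjusted p of 0.00249. Of its longest transcript, 17.6% is near-identical to *Bhmt-ps1* and *Gm5096*. *Bhmt2*, the neighbouring paralog that uses S-methylmethionine, was lower without overlap. Its values were 142, 134, 151 and 157 FPKM in control mice 1 to 4 and 109, 95.1, 109.9 and 97.8 FPKM in *Usp39*-HKO mice 1 to 4 (log2 fold change -0.73, SE 0.12, adjusted p = 0.00213 by edgeR). *Mtr*, methionine synthase, which uses methyl-folate for the same step, was at 2.04 ± 0.14 FPKM for controls and 2.31 ± 0.16 FPKM for the *Usp39*-HKO group (SD, n = 4 each). It was not called (log2 fold change -0.06, adjusted p = 0.734 in the edgeR fit), and its log2 fold change was above 0 without TMM factors. The ratio of *Bhmt* to *Mtr* had a mean of 366 over controls and 214 over *Usp39*-HKO mice, and the groups overlapped.

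*Cbs* (cystathionine beta-synthase) and *Cth* (cystathionine gamma-lyase) carry out both steps of transsulfuration. *Cbs* (ENSMUSG00000024039, chr17:31608894-31637238, minus strand) had 69.4, 72.4, 69.6 and 79.4 FPKM in control mice 1 to 4 and 70.5, 67.6, 57.9 and 51.8 FPKM in *Usp39*-HKO mice 1 to 4. Only *Usp39*-HKO mouse 1 lay within the range of the controls. The log2 fold change of -0.45 was called (SE 0.14, adjusted p = 0.0418 in the edgeR fit) close to the threshold, and the call was lost without any single mouse other than *Usp39*-HKO mouse 1 (adjusted p up to 0.11, and 0.0175 at a log2 fold change of -0.53 without *Usp39*-HKO mouse 1) and without TMM factors (log2 fold change -0.23, adjusted p = 0.178). On FPKM as deposited, 72.7 ± 4.69 and 62.0 ± 8.65 (SD, n = 4 each), the two-sided exact permutation test gave p = 0.086, and after division by the TMM factors p = 0.029. *Cth* (ENSMUSG00000028179, chr3:157894248-157925077, minus strand) was at 346, 278, 399 and 400.3 FPKM in control mice 1 to 4 and at 318, 412, 335 and 303 FPKM in *Usp39*-HKO mice 1 to 4. The groups lay within nearly the same range, 356 ± 57.7 and 342 ± 48.2 FPKM (SD, n = 4 each; two-sided exact permutation test, p = 0.771). *Cth* was not called in the edgeR fit (log2 fold change -0.29, SE 0.16, adjusted p = 0.222) or in any of 15 alternatives, and was at -0.26 (adjusted p = 0.321) without *Usp39*-HKO mouse 1.

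*Shmt1* encodes the cytosolic serine hydroxymethyltransferase, which moves a carbon from serine to tetrahydrofolate and thereby supplies the folate arm of the cycle. *Shmt1* (ENSMUSG00000020534, chr11:60788104-60811718, minus strand) measured 41.1, 47.9, 39.5 and 45.6 FPKM in control mice 1 to 4. The values in *Usp39*-HKO mice 1 to 4 were 31.4, 34.1, 29.0 and 29.8 FPKM. Every *Usp39*-HKO liver was below every control, and *Usp39*-HKO mouse 1 was not apart from its group. With means of 43.5 ± 3.90 and 31.1 ± 2.25 FPKM (SD, n = 4 each), the two-sided exact permutation test gave the smallest possible p of 0.029. The log2 fold change was -0.72 (SE 0.11, adjusted p = 0.00172 in the edgeR fit), between -0.76 and -0.65 when 1 mouse was left out (-0.73 without *Usp39*-HKO mouse 1, adjusted p = 0.00172), and under the threshold in all 15 alternatives. Of its exon bases, 4.74% lie opposite exons of *Smcr8*.

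By level in controls, *Mat1a* stood first, followed by *Ahcy*, *Gnmt* and *Bhmt*, whose ranges over the mice overlapped so that their order is not resolved, then *Cth*, *Pemt*, *Cbs*, *Shmt1* and *Mat2a*, each with no overlap with its neighbours. In *Usp39*-HKO livers *Mat2a* stood above *Shmt1*. The ratio of *Mat2a* to *Shmt1* ranged from 0.593 to 0.691 over the controls and from 1.32 to 1.75 over the *Usp39*-HKO mice. The ratio of *Mat2a* to *Cbs*, the next gene above, spanned 0.376 to 0.393 over controls and 0.668 to 1.005 over *Usp39*-HKO mice. Both pairs were set side by side after their values were seen.

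The promoters of *Mat2a*, *Bhmt* and *Shmt1* are shown because these were the members called in most alternatives, *Mat2a* upwards and the other two downwards. The sequences are the 250 bases before the start annotated in RefSeq on GRCm38.p6, where 7 of the 9 members matched. For *Shmt1* and *Bhmt* that start lies inside the gene span given above. All of the *Shmt1* window and most of the *Bhmt* window are thus within those spans. They are written 5′ to 3′ in the sense of the gene, with the TATA box (TATAAA), the CCAAT box (CCAAT), the GC box (GGGCGG), the E-box (CACGTG) and the nuclear receptor half-site (AGGTCA), searched on both strands with overlapping matches counted, in capitals.
Mat2a promoter, chr6:72439557-72439806, minus strand: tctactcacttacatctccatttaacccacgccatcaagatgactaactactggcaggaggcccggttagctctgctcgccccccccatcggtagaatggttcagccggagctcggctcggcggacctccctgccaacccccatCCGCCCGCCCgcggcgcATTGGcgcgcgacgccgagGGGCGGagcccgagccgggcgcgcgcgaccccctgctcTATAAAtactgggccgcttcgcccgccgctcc
Bhmt promoter, chr13:93637759-93638008, minus strand: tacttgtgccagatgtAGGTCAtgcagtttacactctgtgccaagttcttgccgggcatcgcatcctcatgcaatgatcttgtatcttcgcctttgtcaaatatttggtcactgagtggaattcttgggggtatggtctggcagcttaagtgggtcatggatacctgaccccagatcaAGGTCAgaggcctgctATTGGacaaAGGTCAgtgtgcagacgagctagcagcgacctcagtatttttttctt
Shmt1 promoter, chr11:60811266-60811515, minus strand: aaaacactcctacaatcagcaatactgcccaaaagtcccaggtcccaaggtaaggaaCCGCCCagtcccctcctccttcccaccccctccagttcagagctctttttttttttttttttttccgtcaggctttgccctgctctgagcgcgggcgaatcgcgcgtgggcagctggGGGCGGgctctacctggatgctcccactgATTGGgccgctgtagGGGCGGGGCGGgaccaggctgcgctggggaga
*Mat2a* held 1 TATA box, 1 CCAAT box, 3 GC boxes, of which a pair overlaps, and 29 CpG dinucleotides. *Bhmt* held 3 nuclear receptor half-sites, 1 CCAAT box and 5 CpG dinucleotides. *Shmt1* held 4 GC boxes, of which a pair overlaps, 1 CCAAT box and 13 CpG dinucleotides. The median over 32851 promoters of the same length was 6 CpG dinucleotides, and *Mat2a* was at percentile 93.2. Among these promoters 12.4% held a TATA box, 33.8% a CCAAT box, 32.7% a GC box, 6.02% an E-box and 14% a nuclear receptor half-site, with at least 3 half-sites in 0.131% and at least 3 GC boxes in 8.47%. These are letter matches, and no factor was measured at these promoters.

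Markers of several cell types also differed between the groups. Of 12 hepatocyte markers 6 were called lower and 0 higher, with a median log2 fold change of -0.52, close to that of the members. Their summed level ran from 19499 to 21541 FPKM over the controls and from 16598 to 22632 FPKM over the *Usp39*-HKO mice, with *Usp39*-HKO mouse 1 the highest of all 8. By the mean log2 FPKM of the 12 markers, which weights them equally, *Usp39*-HKO mouse 1 (9.94) lay above control mouse 1 (9.93), below the other 3 controls (9.96 to 9.99) and above the other 3 *Usp39*-HKO mice (9.55 to 9.70). Of 6 biliary markers tested (8 listed) 5 were called higher, and their summed level ran from 34.8 to 37.2 FPKM over the controls and from 74.8 to 301 FPKM over the *Usp39*-HKO mice, with *Usp39*-HKO mouse 1 the lowest of its group. Stellate and macrophage markers were each called higher for 6 of 8, with no overlap of the summed levels (36.0 to 46.4 against 53.7 to 127.8 FPKM, and 301 to 389 against 549 to 822 FPKM). Of 8 endothelial markers 2 were called lower, of 5 lymphocyte markers tested 1 was called higher, and of 4 erythroid markers tested 4 were called lower. None of the markers found in the table was at 0 in all mice. In bulk RNA, fewer hepatocytes and less of a transcript per hepatocyte cannot be told apart.

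Each member was therefore also set against the mean log2 FPKM of the 12 hepatocyte markers of the same mouse, an alternative added after the data were seen and given without a test. *Mat2a* was then 0.98 higher on the log2 scale, without overlap between the groups. The difference was -0.34 for *Bhmt*, -0.27 for *Ahcy*, -0.22 for *Shmt1*, -0.14 for *Gnmt* and -0.09 for *Mat1a*, and 0.02 for *Cbs*, 0.21 for *Cth* and 0.41 for *Pemt*. For all 8 of these members the groups overlapped on that scale, *Shmt1* included, which did not overlap on FPKM. Since 6 of the 12 markers were themselves called lower, this reference shows how the members stood relative to the markers. The marker mean averaged 9.96 over controls and 9.70 over *Usp39*-HKO mice, so a gene with level FPKM lies above 0 on this scale. How all genes tested lie on it was not computed, and values above 0 are not by themselves increases. The part of cell makeup in the member differences was not tested further.

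**Figure D3:**
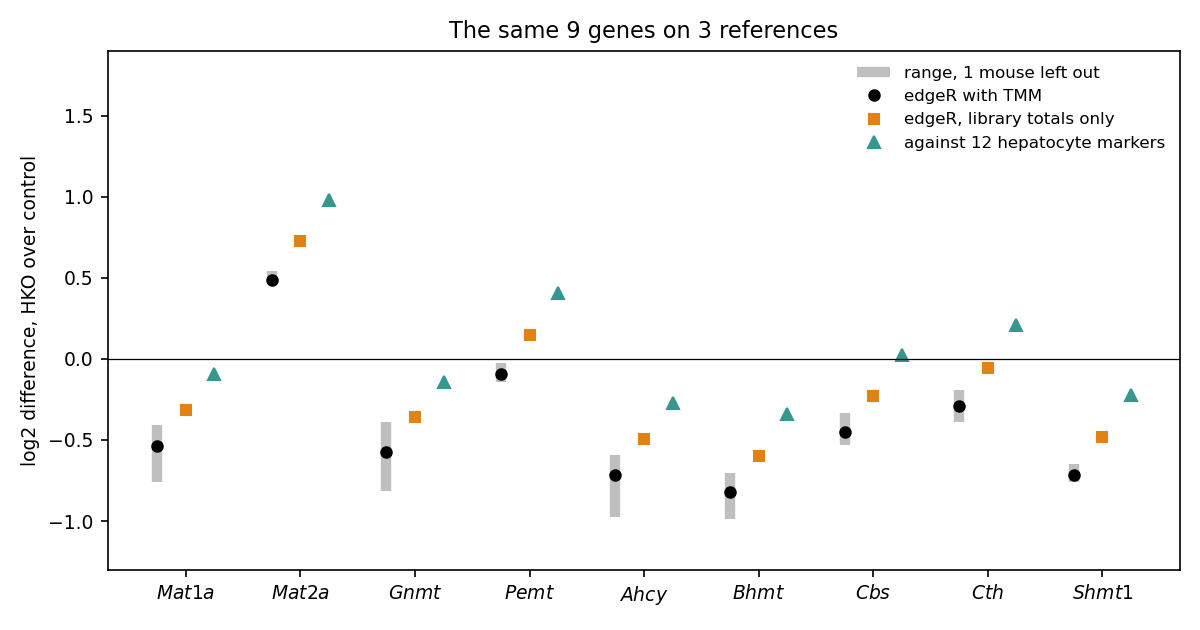
Difference of each member between *Usp39*-HKO and control mice on the log2 scale under 3 references: the edgeR fit with TMM factors, the same fit without TMM factors, and relative to 12 hepatocyte markers of the same mouse, with a grey bar from the lowest to the highest fit when 1 mouse is left out. *Mat2a* is above 0 under all 3 (0.49, 0.73 and 0.98), *Mat1a*, *Gnmt*, *Bhmt*, *Ahcy* and *Shmt1* are below 0 under all 3, and *Cbs*, *Cth* and *Pemt* lie on both sides. Over all genes tested the median is -0.0015 with TMM factors and 0.24 without them. The marker mean is lower in *Usp39*-HKO mice (9.70 against 9.96), so that reference also shifts genes upwards.

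The likeness of patterns over the 8 mice was measured as the root-mean-square difference of mean-centred log2 CPM with TMM factors, as a description over 8 livers that share libraries. Among members, *Mat1a* and *Ahcy* were nearest to each other (0.12), followed by *Shmt1* and *Cbs* (0.17), and the member nearest to *Gnmt* was *Mat1a* (0.17). The members farthest from all others were *Mat2a*, whose nearest was *Pemt* (0.31), and *Pemt*, whose nearest was *Cth* (0.27). By the same measure *Mat2a* lay 0.25 and *Pemt* 0.11 from a flat pattern, nearer than to any other member. Among all genes tested, these nearest members ranked 4923 for *Mat2a* and 6339 for *Pemt*. Over all genes tested, the nearest was *0610005C13Rik* for *Mat1a* (0.09), *Ptgs1* for *Mat2a* (0.05), *Gm16573* for *Gnmt* (0.10), *Suox*, the gene of sulfite oxidase, for *Bhmt* (0.11), *Klf15* for *Ahcy* (0.09), *Tst*, the gene of a mitochondrial sulfurtransferase, for *Cbs* (0.07), *1110008P14Rik* for *Cth* (0.06), *Pla2g15* for *Pemt* (0.05) and *Dhx16* for *Shmt1* (0.05).

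Around the 9 members, 83 further genes of the same pathways were listed by role, and 78 passed the filter. Of these 8 were called higher and 25 lower (42.3%, beside 22.5% of all genes tested), with a median log2 fold change of -0.25. The lists were chosen with earlier results of these data known. Of the 12 hepatocyte markers 6 were also called lower, with a median of -0.52, so the share is not shown to be particular to these pathways. The list of SAM formation and use had 1 gene higher and 2 lower of 16, with a median of -0.09. *Mettl16*, given above, was the gene that rose, and *Bhmt2* and *Ahcyl1*, a relative of *Ahcy* without known hydrolase activity, fell. *Ahcyl1* went from 31.4 ± 3.23 to 25.3 ± 2.74 FPKM (SD, n = 4 each; log2 fold change -0.55, adjusted p = 0.00573 by edgeR).

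Polyamine formation consumes decarboxylated SAM, and methionine salvage recovers methionine from its remnant. In the list of methionine salvage and polyamine metabolism, 3 of 11 genes were called higher and 2 lower, with a median of -0.01. *Sat1*, spermidine/spermine acetyltransferase, had the largest rise of the list. It measured 18.7, 24.3, 17.7 and 20.4 FPKM in control mice 1 to 4 and 42.1, 36.3, 52.3 and 51.1 FPKM in *Usp39*-HKO mice 1 to 4, without overlap (log2 fold change 0.93, SE 0.14, adjusted p = 0.00137 by edgeR). *Srm*, spermidine synthase, also rose (13.9 ± 2.84 to 25.5 ± 4.08 FPKM, SD, n = 4 each; log2 fold change 0.65, adjusted p = 0.0201 in the edgeR fit), and its call was lost without control mouse 1, 3 or 4 or *Usp39*-HKO mouse 3 (adjusted p up to 0.0633). The called salvage enzymes went in both directions. *Mtap* rose without overlap, from 7.38 ± 0.60 to 13.3 ± 2.07 FPKM (SD, n = 4 each, log2 fold change 0.60, adjusted p = 0.00402 by edgeR). *Adi1* and *Apip* fell (log2 fold changes -0.62 and -0.53, edgeR adjusted p = 0.00586 and 0.0327). The call of *Apip* was lost without any single mouse except control mouse 2 or *Usp39*-HKO mouse 2 (adjusted p up to 0.102).

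Of 11 genes tested in the use of cysteine, for taurine, for glutathione and in the transfer and oxidation of sulfur, 1 was called higher and 6 lower, with a median of -0.40. *Csad*, the decarboxylase that leads to hypotaurine, had the largest fall of the list. Control mice 1 to 4 had 69.5, 71.4, 48.3 and 55.7 FPKM of *Csad*, and *Usp39*-HKO mice 1 to 4 had 8.14, 29.9, 23.4 and 15.6 FPKM. The groups did not overlap, and here *Usp39*-HKO mouse 1 was the lowest liver (log2 fold change -1.91, SE 0.31, adjusted p = 0.00229 by edgeR). *Cdo1*, cysteine dioxygenase, the step before *Csad*, had the pattern of *Ahcy*, at 794, 829, 949 and 963 FPKM in control mice 1 to 4 and at 857, 496, 552 and 426 FPKM in *Usp39*-HKO mice 1 to 4. It was called lower (log2 fold change -0.81, adjusted p = 0.0248, edgeR) and lost the call without control mouse 3 or 4 or *Usp39*-HKO mouse 2, 3 or 4 (adjusted p up to 0.0693). *Gss*, glutathione synthetase, rose from 10.9 ± 2.03 to 19.96 ± 3.02 FPKM (SD, n = 4 each; log2 fold change 0.64, adjusted p = 0.00924 by edgeR), and 15.4% of its exon bases lie opposite exons of other genes (*Acss2*, *Gssos1* and *Gssos2*).

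In the folate, serine and glycine list, 2 of 22 genes tested were called higher and 7 lower, with a median of -0.30. *Shmt2*, the mitochondrial partner of *Shmt1*, fell from 61.6 ± 6.57 to 47.8 ± 5.19 FPKM (SD, n = 4 each; log2 fold change -0.60, adjusted p = 0.00508 by edgeR), and *Mthfd1*, the cytosolic enzyme that interconverts folate one-carbon units, fell from 64.9 ± 8.41 to 45.7 ± 3.06 FPKM (log2 fold change -0.74, adjusted p = 0.00211, edgeR). *Amt*, of the glycine cleavage system, had a log2 fold change of -0.81 (adjusted p = 0.0102, edgeR). *Psat1*, of serine synthesis, was called higher (log2 fold change 1.55, SE 0.46, adjusted p = 0.0327 in the edgeR fit) from 0.717, 0.711, 0.602 and 0.293 FPKM in control mice 1 to 4 to 1.28, 1.31, 1.04 and 4.59 FPKM in *Usp39*-HKO mice 1 to 4. *Usp39*-HKO mouse 4 lay far above the others, and the call was lost without it, and without control mouse 1, 3 or 4 (adjusted p up to 0.0952). *Tyms*, thymidylate synthase, was called higher at a low level (1.02 ± 0.13 to 1.75 ± 0.36 FPKM, SD, n = 4 each; adjusted p = 0.039, edgeR), and lost the call without any single mouse except *Usp39*-HKO mouse 1 or 3 (adjusted p up to 0.108).

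Among 18 genes tested in choline, betaine and phosphatidylcholine metabolism, 1 was called higher and 8 lower, with a median of -0.38. *Chpt1*, the last enzyme of the CDP-choline route, fell without overlap, from 30.4, 22.8, 30.0 and 29.4 FPKM in control mice 1 to 4 to 16.9, 19.0, 16.6 and 14.2 FPKM in *Usp39*-HKO mice 1 to 4 (log2 fold change -0.98, SE 0.14, adjusted p = 0.00134 by edgeR). *Pcyt1a*, the rate-limiting enzyme before it, was level on FPKM (15.5 ± 0.94 and 15.7 ± 0.53, SD, n = 4 each). It was not called (log2 fold change -0.21, adjusted p = 0.135 in the edgeR fit), and its log2 fold change without TMM factors was 0.02. *Sardh*, sarcosine dehydrogenase, which takes the product of *Gnmt* further, fell from 165 ± 22.7 to 119 ± 22.9 FPKM (SD, n = 4 each; log2 fold change -0.69, adjusted p = 0.018, edgeR), a call lost without control mouse 3 or 4 (adjusted p up to 0.0597). *Slc44a2*, a choline transporter, was called higher (2.15 ± 0.27 to 3.60 ± 0.70 FPKM, SD, n = 4 each; log2 fold change 0.50, adjusted p = 0.0217, edgeR), and lost the call without control mouse 4 or *Usp39*-HKO mouse 4 (adjusted p up to 0.0696).

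**Figure D4:**
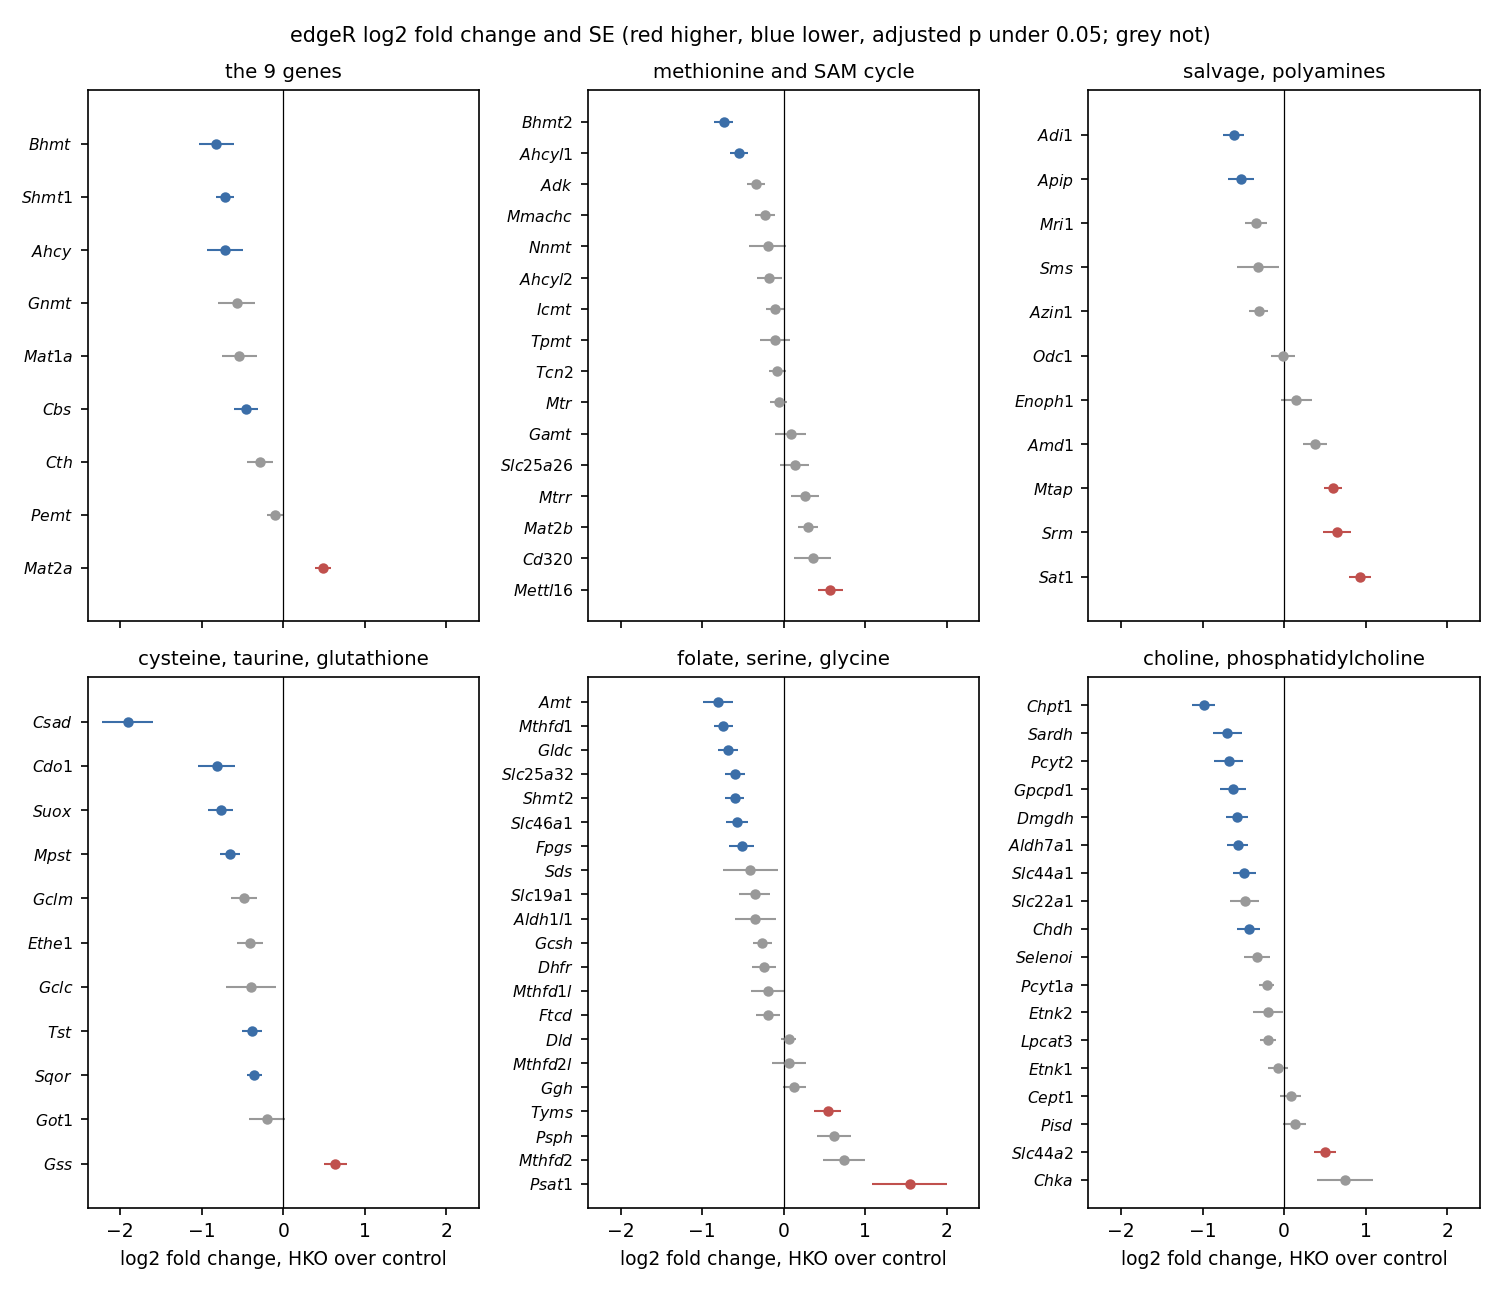
Fitted log2 fold change between the genotypes, *Usp39*-HKO over control (edgeR with TMM factors, horizontal axis, error bars of 1 SE) for the 9 members and tested genes of the 5 pathway lists, with 1 panel per list, red and blue for genes called higher and lower and grey for genes not called. *Csad* (-1.91) and *Psat1* (1.55) lie farthest from 0, and *Mat2a* (0.49) is the only member above 0.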

How the data were processed

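Liver RNA of 4 control and 4 *Usp39*-HKO mice was grouped by the genotype in the labels, which give no batch. According to the methods and the submitters' processing notes, the authors aligned paired reads to mm10 with HISAT2 2.2.0, sorted them with samtools 1.9 and counted them with featureCounts, and they deposited raw counts per gene and mouse. The deposited FPKM were made by the authors from these counts, the exon length and the total of the mouse, and counts, lengths and totals give them back within a relative difference of 1.96e-07. The strandedness and the handling of reads that map to several genes are not given in the sources used here. The authors' own comparison (mean normalized signal, log2 fold change, standard error, statistic as scores, p-value, adjusted p-value and a call, deposited per gene) was not used.

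The table has 55699 entries for 55385 identifiers, and 314 repeated entries were read once. Genes had to reach an FPKM of 0.5 in 4 mice or more. edgeR 4.0.16 with TMM factors (R 4.3.3) compared the genotypes with its quasi-likelihood test, without covariates. The Benjamini-Hochberg adjustment covered every gene that passed the filter. Exact permutation tests were two-sided. DESeq2 1.42.0, limma 3.58.1 on log2(FPKM + 1) and log2(FPKM + 0.1), other scalings and filters, the cutoff of the study (p under 0.05 and an absolute log2 fold change over 0.5) and fits without 1 mouse each were alternatives. A floor of 3 counts was 0.288 to 0.349 CPM (counts scaled to the library total), and covers counting error only. Within a genotype, libraries varied beyond counting error, with a chi-square of 7.02 to 36.4 per degree of freedom. P-values measure the spread between these mice.

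GENCODE vM21 gave coordinates, strand and exon overlap (99.6% of identifiers found), and BLAST+ 2.17.0+ gave sequence shared over at least 150 bases at 97% identity. The edgeR and DESeq2 scripts were tested on simulated data. The members, pathway lists, markers and tests were chosen with earlier results of these data known. Named pathway genes are *Mtr*, *Bhmt2*, *Mat2b*, *Shmt2*, *Pcyt1a* and, per list, up to 2 called genes with the largest rise and 2 with the largest fall. Outside this rule, *Mtap* is also named, after its values were seen. Another gene named by this rule is not reported here, in the text or plots, but is counted in its list.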

Additional observations from a re-analysis of the deposited data

Results flagged for a closer look

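In *Usp39*-HKO mouse 1, *Mat1a* (2828 FPKM) and *Ahcy* (893 FPKM) each lay far above the other 3 *Usp39*-HKO mice, with a gap to the next mouse of 0.835 and 0.929 of the whole range of the group, beyond Dixon's 95% critical value for 4 samples. Of 18 groups of 4 mice examined for the members, these were the 2 that passed, and chance alone passes about 1 in 20. The same mouse had the highest summed hepatocyte markers of all 8 livers (22632 FPKM), although by their mean log2 FPKM (9.94) it lay below 3 of the 4 controls (9.96 to 9.99), and it had the lowest summed biliary markers of its group (74.8 FPKM). Its *Usp39* level on FPKM as deposited (8.37 FPKM) lay within the range of the other *Usp39*-HKO mice. Divided by the TMM factor, that level was 8.28 FPKM, the highest of the group (7.95, 8.18 and 6.79 FPKM in *Usp39*-HKO mice 2 to 4). The part of these values in the levels of *Mat1a* and *Ahcy* was not tested.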

How the results depend on the processing

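*Mat2a* and *Shmt1* kept their direction and call in all 15 alternative fits, except that *Mat2a* (0.49) missed the size asked by the cutoff of the study. That cutoff called 0 members higher, lost *Cbs* (-0.45) and added *Mat1a* (-0.54) and *Gnmt* (-0.57). DESeq2 added *Mat1a* (-0.53) and *Gnmt* (-0.57), and fitting without the filter on low values added *Gnmt* (-0.59). Without TMM factors, with a mean FPKM of at least 5, and with limma at a pseudocount of 1 or 0.1, 2 members each were called lower, since *Ahcy* (-0.50, -0.64, -0.54 and -0.54) and *Cbs* (-0.23, -0.38, -0.24 and -0.24) lost their calls, and *Pemt* was above 0 without TMM factors and with limma (0.14 each). *Mtr* (0.18, 0.12 and 0.17) and *Pcyt1a* (0.021, 0.019 and 0.020), not called in any fit, also turned there. On FPKM divided by TMM factors, *Pemt* turned to lower (exact permutation p = 0.371). Those 4 settings called 3525, 750, 3031 and 3061 genes higher and 696, 845, 637 and 626 lower. The calls were 83.5%, 47.0%, 82.6% and 83.0% higher, beside 48.4%. The filter at 5 FPKM tests 6672 genes, and the cause of its lost calls was not tested.

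Leaving out 1 mouse, 1 to 6 members were called lower, and log2 fold changes ranged from -0.76 to -0.41 for *Mat1a*, -0.82 to -0.39 for *Gnmt*, -0.99 to -0.70 for *Bhmt*, -0.97 to -0.59 for *Ahcy* and -0.53 to -0.33 for *Cbs*. Over all genes, 920 to 1713 were called higher and 935 to 1665 lower, with the fewest without control mouse 3, control mouse 4 or *Usp39*-HKO mouse 4. Relative to hepatocyte markers, chosen after seeing the data, differences were -0.091 (*Mat1a*), 0.98 (*Mat2a*), -0.14 (*Gnmt*), -0.34 (*Bhmt*), -0.27 (*Ahcy*) and -0.22 (*Shmt1*), and turned to 0.022 for *Cbs*, 0.21 for *Cth* and 0.41 for *Pemt*. The marker mean was itself lower in *Usp39*-HKO livers (9.70 against 9.96), which shifts all genes upwards on that scale. No paired analysis was possible because the labels give the mice no numbers that tie a control to a *Usp39*-HKO mouse. With 4 mice per group, the exact test cannot go below p = 0.029.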

Other observations

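Markers of the exocrine pancreas summed to 482 FPKM in control mouse 4 and to between 2.45 and 4.72 FPKM in the other 7 livers. In that mouse 5 members were at the highest level of the 4 controls, *Mat2a* at 29.8 FPKM, *Cbs* at 79.4 FPKM, *Cth* at 400.3 FPKM, *Bhmt* at 839.6 FPKM and *Gnmt* at 990.0 FPKM. *Mat1a* was at the lowest level of the 4 controls there, at 2419 FPKM. The share of all genes that were highest in that mouse was not computed. Without control mouse 4, the log2 fold change was 0.51 for *Mat2a* (adjusted p = 0.0183), -0.42 for *Cbs* (adjusted p = 0.11), -0.24 for *Cth* (adjusted p = 0.408), -0.76 for *Bhmt* (adjusted p = 0.0552) and -0.50 for *Gnmt* (adjusted p = 0.22), all from edgeR. The part of pancreas RNA in these levels was not tested.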
